A study of Caenorhabditis elegans with 24 samples.

Results

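Whole wild-type *Caenorhabditis elegans* at hypoxia exposure 4 of a lineage were compared with worms at hypoxia exposure 1. A gene entered the comparison if the 6 libraries of these groups together held 350 or more of its counts, and 13250 of the 46926 genes of the count table did. Of these, 12570 are protein-coding. The series holds 24 poly(A) RNA-seq libraries, 3 each of hypoxia and normoxia worms at 4 successive exposures, 1 per generation. All groups carry the wild-type genotype and were grown at 20 degrees on OP50 bacteria. In the hypoxia groups, worms of the L4 stage, the last before adulthood, spent 16 hours in 0.1% oxygen, and at exposure 4 their ancestors had been through 3 earlier exposures. Normoxia worms of the same generations stayed in normal air and supply the difference between generations in the absence of hypoxia. Each library came from a sample of many worms, labelled as L4 and collected after the 16 hours. Generations follow each other in time, so that inherited effects of the earlier exposures and any other difference between collections cannot be told apart.

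Worms meet low oxygen mainly through the transcription factor HIF-1, which the prolyl hydroxylase EGL-9 marks for destruction when oxygen is present. Low oxygen also draws on chaperones, on fat and amino acid breakdown and on the surface tissues. A worm entering hypoxia at L4 is finishing spermatogenesis, beginning oogenesis and yolk synthesis, and building its adult cuticle, an extracellular layer of collagens and cuticlins laid down anew at each molt.

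Library totals were between 33126412 and 38250888 counts at hypoxia exposure 4 and between 27210264 and 32838612 counts at hypoxia exposure 1. Ribosomal RNA genes took 17.5% of the counts in hypoxia exposure 4 replicate 1, against 0.431% and 0.562% in the other exposure 4 libraries and 0.919% to 1.65% in exposure 1. Without these genes the counts of calls given below were 195 and 703. Replicate 2 of hypoxia exposure 1 stood apart from its mates, with 100 genes more than 2 log2 units from the mean of the other 2 libraries, whereas replicates 1 and 3 had 5 and 8 such genes. On the first principal component of the 6 libraries (45.5% of the variance) it lay at 46.77, against 2.11 and 1.88 for its mates and -18.38 to -16.06 for exposure 4. On the second (40.4%) it lay at -17.81, near the exposure 4 libraries (-14.42 to -13.86) and far from its mates (28.66 and 31.36). The 6 vitellogenins, which encode yolk proteins made by adult intestine, summed to 34010 to 41590 CPM (counts per 1e+06, scaled by the TMM method over all 24 libraries) at exposure 4. At exposure 1 they summed to 56450 CPM in replicate 2 and to 23270 and 18750 CPM in replicates 1 and 3. Yolk transcripts were thus abundant in both groups, whose worms were L4 at the start of the 16 hours and were collected after them. None of 9 early embryo markers reached the count minimum. Counts of called members are therefore given with and without that library, and its part in them was not tested.

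In edgeR's quasi-likelihood test, 193 genes were higher (1.46% of those tested) and 700 were lower (5.28%) at hypoxia exposure 4 than at exposure 1, together 6.74%, at a Benjamini-Hochberg adjusted p under 0.05. The median log2 fold change was 0.90 among the genes called higher and -0.78 among those called lower, against -0.01 over all genes tested. A change of at least 2-fold was shown by 89 of the higher and 145 of the lower genes. The 3 libraries of one group lay above all 3 of the other for every called gene, as they did for 12.9% of all tested genes in the higher direction and 18.5% in the lower. Leaving out the library that stood apart raised the calls to 2188 higher (16.5%) and 3020 lower (22.8%), and all 193 and all 700 kept their call. Their direction could not change, as their groups do not overlap. Leaving out an exposure 4 library left 0 to 7 higher and 0 to 3 lower genes in edgeR, with a smallest adjusted p between 0.0473 and 0.0582, against 0.00298 with all 6 libraries. With all 6, an unadjusted p gave 1003 higher and 2051 lower genes, and DESeq2 gave 592 and 1223. Leaving out replicate 1 or 3 of exposure 1 left 67 and 77 higher and 281 and 143 lower genes.

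**Figure D1:**
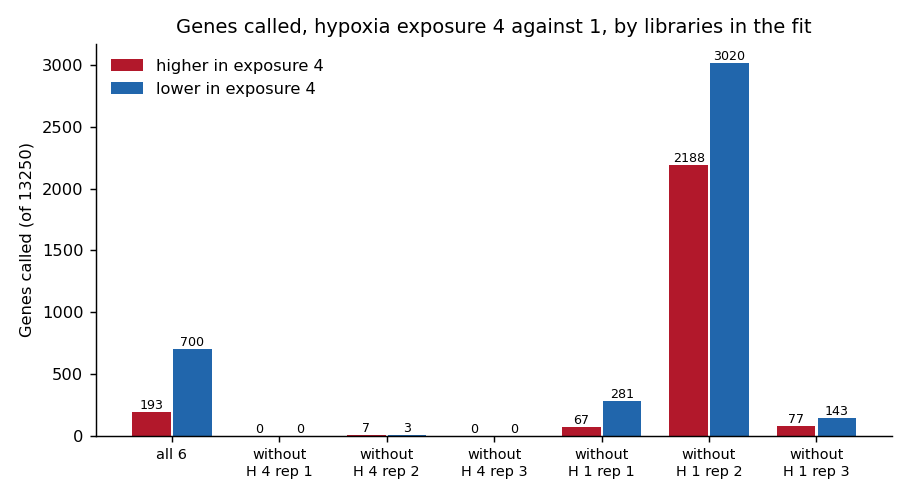
Number of genes (vertical axis, of 13250 tested) called higher or lower at hypoxia exposure 4 than at exposure 1 by edgeR, with all 6 libraries and with each library left out; H is hypoxia, and the number after it is the exposure. The bars stand at 193 and 700 with all libraries, at 2188 and 3020 without exposure 1 replicate 2, and at 7 or fewer without any exposure 4 library.

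The normoxia libraries of the same generations gave 309 genes higher (2.33%) and 850 lower (6.42%) at exposure 4 than at exposure 1 in the same test, together 8.75%. Without normoxia exposure 1 replicate 1 these were 1370 and 2056, and without normoxia exposure 4 replicate 3 they were 49 and 90. The normoxia counts of the gene lists below are given with all normoxia libraries only. How those counts move without normoxia exposure 1 replicate 1 was not tested. Of the genes higher under hypoxia, 39 were higher in normoxia as well, which is 20.2% of the hypoxia list and 12.6% of the normoxia list. Of the genes lower under hypoxia, 131 were lower in normoxia as well, 18.7% of the hypoxia list and 15.4% of the normoxia list. Only 4 genes were called in opposite directions. Across the 13250 genes, which are not independent replicates, the hypoxia and normoxia differences had a Pearson r of 0.33 and a Spearman rho of 0.41, and the 2 comparisons share no library. The difference between them, tested per gene over the 12 libraries, was above 0 for 76 genes (0.574%) and below 0 for 59 (0.445%), together 1.02%. These were 350 and 257 without hypoxia exposure 1 replicate 2, and between 1 and 204 above and 1 and 131 below 0 without any other library. Among the genes called under hypoxia it was called above 0 for 23 that were higher, and below 0 for 37 that were lower. The shares of all tested genes called higher and lower under hypoxia, 1.46% and 5.28% with all libraries and 16.5% and 22.8% without the library that stood apart, are those against which the counts of the gene groups below are read.

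**Figure D2:**
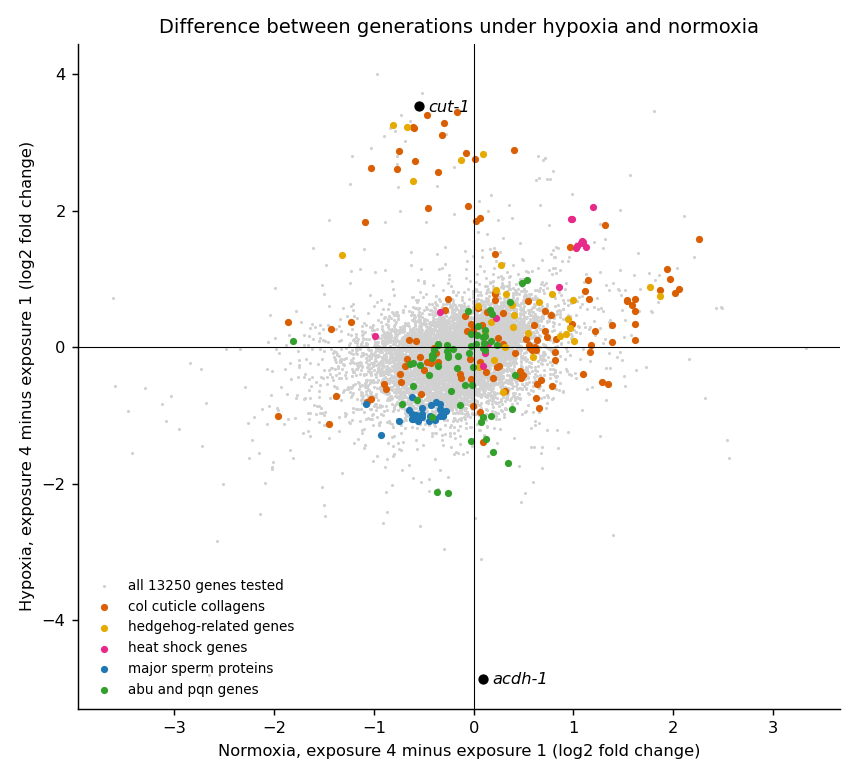
Each point is a gene, placed by its log2 fold change between exposures 4 and 1 under hypoxia (vertical axis) and under normoxia (horizontal axis), with 5 gene lists in colour. The collagens and hedgehog-related genes that rose most under hypoxia lie near or left of 0 on the normoxia axis, most heat shock genes lie to the upper right, and *acdh-1* lies at -4.85 under hypoxia and 0.09 under normoxia.

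Most of the genes raised furthest encode proteins of the cuticle and apical matrix. The 10 largest rises by the rule for named genes were *cut-1*, *col-185*, *col-37*, *col-40*, *grl-25*, *grl-20*, *col-2*, *col-102*, *col-51* and C13A2.12, with log2 fold changes of 3.09 to 3.52. *cut-1*, on chromosome II at 11269122 to 11271660 of WBcel235, encodes a cuticlin, a protein of the insoluble layer of the cuticle. It had 42.8, 48.2 and 54.05 CPM at hypoxia exposure 4, against 3.79, 1.16 and 7.497 CPM at hypoxia exposure 1. The groups did not overlap, and the level was 11.5-fold higher (log2 3.52 ± 0.55, SE; edgeR adjusted p = 0.02). In normoxia it averaged 2.10 CPM at exposure 4 and 3.05 CPM at exposure 1, and the test of the difference between the hypoxia and normoxia changes missed the threshold (log2 4.08, edgeR adjusted p = 0.0797). *col-37*, a cuticle collagen, had 105, 138 and 118 CPM at hypoxia exposure 4, against 16.3, 2.94 and 14.96 CPM at exposure 1. Its change was 10.5-fold (edgeR adjusted p = 0.0216), its normoxia means were 13.2 CPM at exposure 4 and 18.4 CPM at exposure 1, and here the difference passed the test (log2 3.87, adjusted p = 0.0302). *grl-25*, a member of the groundhog-like branch of the hedgehog-related proteins, had 141.7 to 196 CPM (mean 170 CPM) at hypoxia exposure 4, against 17.9, 3.63 and 31.6 CPM at exposure 1, again with no overlap (9.53-fold, edgeR adjusted p = 0.0372). The lowest values of all 3 genes came from the exposure 1 library that stood apart. Without it their log2 fold changes were 3.08, 2.95 and 2.77, all still called. With each of the 6 libraries left out in turn, their highest edgeR adjusted p was 0.110, 0.112 and 0.148, so that each lost its call in another such fit.

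These genes were low at the exposures in between. *col-37* averaged 11.4, 1.35, 2.82 and 120 CPM over hypoxia exposures 1 to 4, and 18.4, 0.860, 3.06 and 13.2 CPM over normoxia exposures 1 to 4. *grl-25* averaged 17.7, 0.882, 3.63 and 170 CPM over the hypoxia exposures. Of the 193 genes called higher, 56 had every hypoxia exposure 4 library above all 21 other libraries of the series, and 10 of the 700 called lower had every one below all 21. These genes were called on the same exposure 4 libraries, and the share of all tested genes that met this was not counted. The counts therefore do not show that it is unusual. As *cut-1*, *col-37*, *col-40*, *col-2*, *col-102*, *col-185*, *grl-25* and *grl-20* each overlap another annotated gene, and the sources used here do not say whether counting used the strand, reads of these genes and their partners cannot be told apart. Their partners C47G2.15, which overlaps *cut-1*, and ZK638.1, which overlaps *grl-25*, were likewise higher (log2 4.00 and 3.73).

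**Figure D3:**
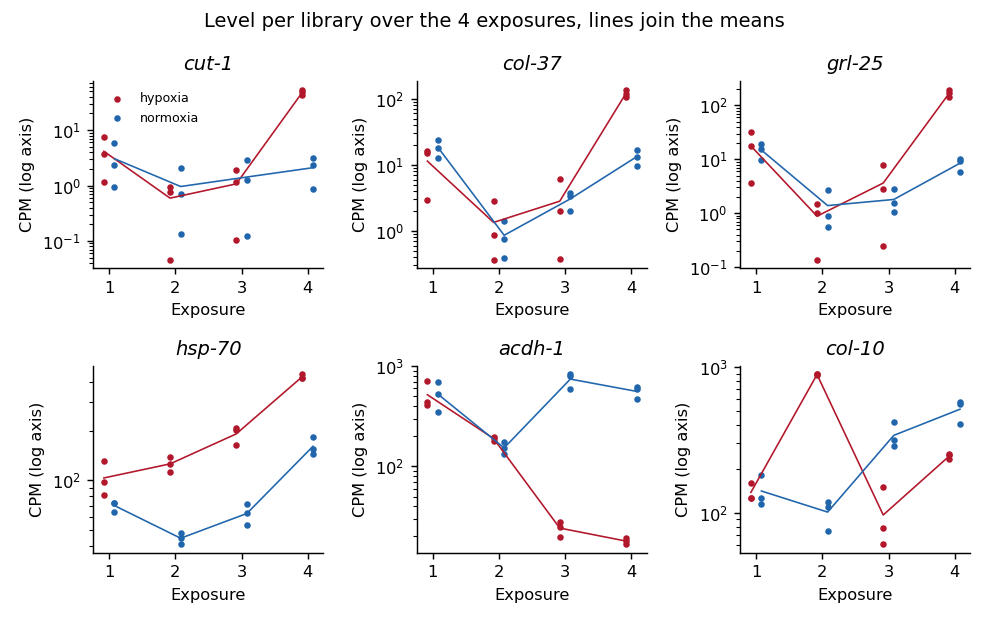
Level in CPM (log axis) of 6 genes in every library over exposures 1 to 4, hypoxia in red and normoxia in blue, with lines through the group means. *cut-1*, *col-37* and *grl-25* are highest in the 3 hypoxia libraries of exposure 4, and *acdh-1* is lowest in the hypoxia libraries of exposures 3 and 4.

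The wider collagen family did not move in 1 direction. Of 156 annotated *col* genes 31 did not reach the count minimum, and of the others 20 rose and 10 fell under hypoxia, 16.0% and 8.0% of those tested, with a median log2 fold change of 0.14. Without the library that stood apart 60 were higher and 18 lower. In normoxia 35 rose and 13 fell, with a median of 0.21. Of the 20 that rose, 13 had every hypoxia exposure 4 library above all 21 others, against 56 of all 193 genes called higher. The share among all tested genes was not counted. A gene that is silent in one group entered only through the other, so these counts describe the members tested and not the family. A second kind of member rose more in normoxia. *col-10* had 233.7, 247 and 253 CPM at hypoxia exposure 4, against 126.3, 125.5 and 160 CPM at exposure 1 (1.78-fold, edgeR adjusted p = 0.0125). In normoxia it had 406, 571 and 560 CPM at exposure 4, against 181, 125.9 and 114 CPM at exposure 1, a 3.65-fold change, and the difference between the 2 changes missed the threshold (log2 -1.03, edgeR adjusted p = 0.0809). *col-95* showed another pattern, with 106, 90.1 and 94.9 CPM at hypoxia exposure 4 against 42.7, 33.97 and 36.7 CPM at exposure 1. Its normoxia means were 136.2 CPM at exposure 4 and 117.6 CPM at exposure 1, so that hypoxia exposure 1 was the lowest of these 4 groups. The difference was called (log2 1.15, edgeR adjusted p = 0.0199). At exposures 2 and 3 *col-95* averaged 42.4 and 133.6 CPM under hypoxia and 113.9 and 112.3 CPM in normoxia, so that hypoxia exposure 2 was low as well. *col-146* was lower at hypoxia exposure 4 (log2 -0.53) and higher at normoxia exposure 4 (log2 0.64), with a called difference of -1.17 (edgeR adjusted p = 0.0174). *col-85* (log2 2.84) and *col-44* (log2 2.76) behaved like *col-37* and their differences were called at 2.92 and 2.75.

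Other lists of surface genes differed in their share of calls. Of 19 body-shape collagens, which set the form and furrows of the cuticle, *rol-8* alone was called higher under hypoxia (log2 1.09), while 9 were higher and 1 lower in normoxia. Their medians were 0.54 under hypoxia and 1.30 in normoxia, and 5 were higher under hypoxia without the library that stood apart. Of 32 hedgehog-related genes tested from 59 annotated, 6 rose (18.8%), among them *grl-9* (log2 2.74), *grl-23* (log2 2.42) and *grd-3* (log2 0.77), and none fell. In normoxia 9 other members rose, and 0 were called higher in both atmospheres. Without hypoxia exposure 1 replicate 2, 14 were higher and 1 was lower under hypoxia. *cut-1* was the only one of 18 cuticlins called under hypoxia, against 3 higher and 1 lower without the library, and 2 fell in normoxia. Of 27 molting and apical matrix genes, *mlt-8* (log2 0.87) and the kinase gene *nekl-2* (log2 0.82) rose under hypoxia, and 9 were higher and 3 lower without that library. In normoxia 5 of the 27 rose and 2 fell. The 10 larval and molt markers summed to 644.7 to 776.0 CPM at hypoxia exposure 4 and to 479.4 to 680.7 CPM at exposure 1, overlapping ranges, and none of them was called in edgeR (1 higher at an unadjusted p and 1 in DESeq2). In normoxia they summed to 1027 to 1323 CPM at exposure 4 and 609.3 to 725.2 CPM at exposure 1. Their part in the collagen changes was not tested.

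Most heat shock genes rose in both atmospheres. Of 16 tested, 11 were higher at hypoxia exposure 4 than at exposure 1 and none was lower, with a median log2 fold change of 1.46, and 10 were higher in normoxia with a median of 0.98. Without hypoxia exposure 1 replicate 2, 12 were higher and 1 was lower under hypoxia. *hsp-70*, an inducible HSP70 chaperone, had 443, 423 and 421 CPM at hypoxia exposure 4, against 80.9, 98.2 and 131 CPM at exposure 1. This was a 4.14-fold change (log2 2.05 ± 0.17, SE; edgeR adjusted p = 0.00631). In normoxia it had 184, 156 and 144 CPM at exposure 4 and 73.2, 64.5 and 72.9 CPM at exposure 1, a 2.30-fold change. The difference between the changes was 0.85 on the log2 scale and missed the threshold (edgeR adjusted p = 0.0875). The other HSP70 genes, F44E5.4 and F44E5.5, are near-identical neighbours between which reads may have been shared. F44E5.4 had 1576, 1794 and 1930 CPM at hypoxia exposure 4, against 396.2, 429.5 and 615.4 CPM at exposure 1 (3.68-fold). *hsp-16.2*, a small heat shock protein that binds unfolded proteins, had 172, 191 and 174 CPM at hypoxia exposure 4, against 56.3, 66.2 and 71.8 CPM at exposure 1 (2.77-fold, edgeR adjusted p = 0.00427). Its normoxia change was 2.18-fold.

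The 4 *hsp-16.1* and *hsp-16.48* genes, which form an inverted near-identical cluster on chromosome V between 9087293 and 9090604, rose by 1.45 to 1.54 on the log2 scale, and their reads may also have been shared between copies. *hsp-16.41*, *hsp-17* and *sip-1* completed the called members, at log2 1.55, 0.89 and 0.43. The 4 *hsp-12* genes and *hsf-1*, the transcription factor that drives the family, were not called, with log2 values between -0.28 and 0.51. No heat shock gene was called by edgeR for a difference between hypoxia and normoxia changes, although 10 of the 16 had an unadjusted p under 0.05. *hsp-70* averaged 103.5 CPM at hypoxia exposure 1, 191.9 CPM at exposure 3 and 429 CPM at exposure 4. The list showed no steady rise over the exposures. Summed over the 16 genes, hypoxia libraries held 2475 to 3151, 2419 to 2722, 2658 to 3245 and 6497 to 7311 CPM at exposures 1 to 4. Normoxia libraries held 2634 to 2902, 2874 to 3344, 2439 to 2869 and 4588 to 4637 CPM, so that exposure 4 was the highest in both atmospheres. F44E5.4 averaged 480.4, 548.5, 435.1 and 1767 CPM over the hypoxia exposures, and 592.7, 697.8, 516.8 and 1166 CPM over the normoxia ones. No unfolded protein response gene of 19 was called under hypoxia in edgeR (2 lower at an unadjusted p, 1 lower in DESeq2), and no proteasome gene of 33 (3 higher and 1 lower at an unadjusted p, 0 in DESeq2). With the exposure 1 library that stood apart left out, 4 and 3 of the 19 were higher and lower, and 19 of the 33 were higher.

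**Figure D4:**
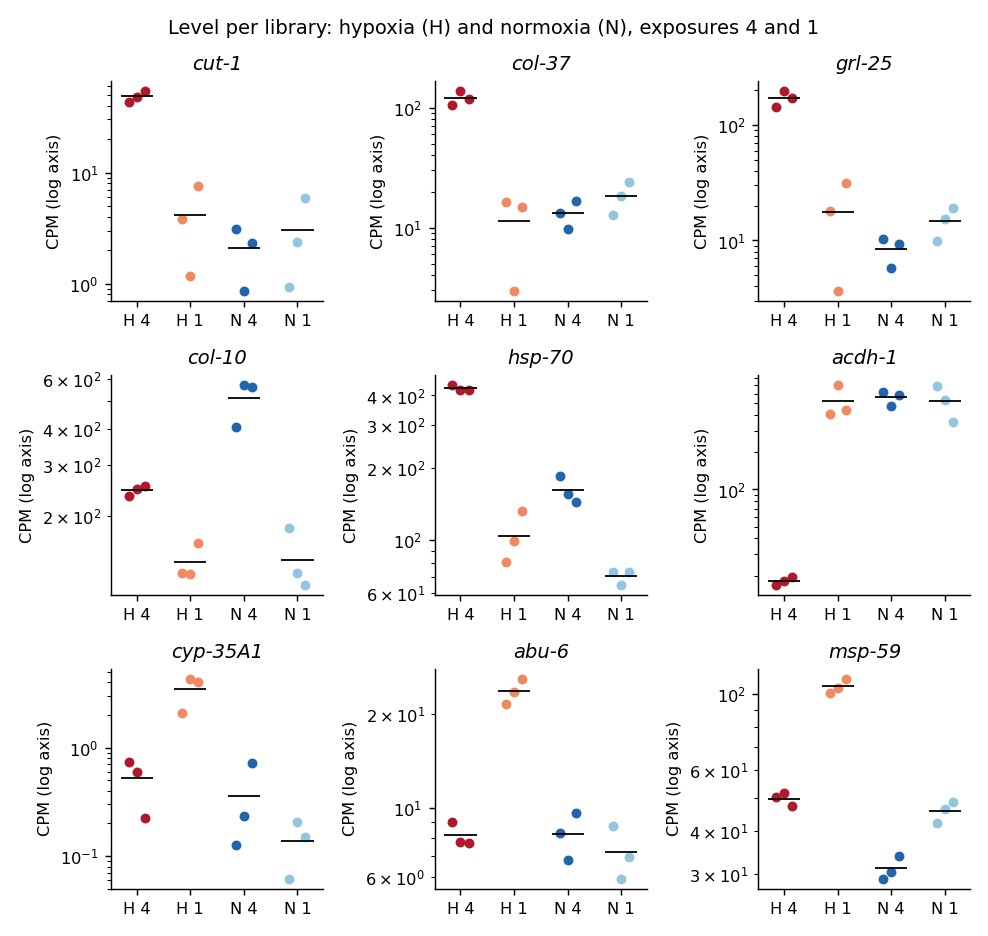
Level in CPM (log axis) of 9 genes in each library (points) with the group mean (line), for hypoxia (H) exposures 4 and 1 and normoxia (N) exposures 4 and 1. For every gene shown the 3 hypoxia exposure 4 libraries lie apart from the 3 hypoxia exposure 1 libraries, while between the 2 normoxia groups only *col-10*, *hsp-70* and *msp-59* are separate.

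The largest fall among all called genes belonged to *acdh-1*, on chromosome I at 6497436 to 6499560, which encodes the acyl-CoA dehydrogenase that opens the propionate shunt, a route of propionate breakdown that does not need vitamin B12. It had between 16.7 and 19.3 CPM in the 3 libraries at hypoxia exposure 4 (mean 18.01 CPM), against 409, 708 and 442 CPM at hypoxia exposure 1. The level at exposure 1 was 28.8 times that at exposure 4 (log2 -4.85 ± 0.24, SE; edgeR adjusted p = 0.00298). In normoxia it had 623, 473 and 588 CPM at exposure 4 and 696, 532 and 350 CPM at exposure 1, which overlap. The difference between the changes was -4.94 on the log2 scale (edgeR adjusted p = 0.000476). Over hypoxia exposures 1 to 3 it averaged 520, 190 and 24.3 CPM, and over normoxia exposures 1 to 4 it averaged 526, 153, 744 and 562 CPM. Normoxia exposure 2 was thus also low, and the means of hypoxia exposures 3 and 4 were the lowest of the 8 groups.

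Genes of the same route were looked at after *acdh-1* had been seen. *hphd-1*, which acts later in the shunt, had 80.8, 94.9 and 86.0 CPM at hypoxia exposure 4, against 139, 308 and 149 CPM at exposure 1, and missed the threshold (log2 -1.19, edgeR adjusted p = 0.0665; log2 -0.72 and called without the library that stood apart). *ech-6*, *hach-1* and *alh-8*, further shunt enzymes, had log2 values of -0.62, -0.44 and -0.11 and were not called. Without that library *ech-6* was at -0.15 (edgeR adjusted p = 0.0492), *hach-1* at 0.007 (not called) and *alh-8* at -0.25 (edgeR adjusted p = 0.0174). The vitamin B12-dependent route (*pcca-1*, *mce-1* and *mmcm-1*) had log2 values between -0.17 and 0.31 and none called. Without that library *mmcm-1* was called (log2 -0.17, edgeR adjusted p = 0.0432). Of 43 beta-oxidation genes, *acox-1.6* (log2 -1.02), *acdh-4* (log2 -0.64) and *ech-3* (log2 -0.44) fell with *acdh-1* (9.30% of the list), and none rose. Without the library that stood apart 28 were lower and 4 higher. The list's median was -0.30 under hypoxia and -0.09 in normoxia, where 2 members fell.

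Some cytochrome P450 genes, whose products oxidise fatty acids and foreign compounds, were also lower. Of 75 annotated genes 40 were tested, 7 fell (17.5%) and none rose under hypoxia (median log2 -0.34), against 1 higher and none lower in normoxia (median log2 -0.06). With the exposure 1 library that stood apart left out, 19 were lower and 6 higher under hypoxia. Normoxia exposure 1 libraries were spread too. In their replicates 1 to 3 *cyp-32B1* had 2.74, 19.75 and 22.5 CPM and *cyp-35A2* had 31.4, 22.7 and 15.2 CPM. The normoxia counts of this list with a library left out were not taken. *cyp-33C8* had 21.04, 19.6 and 20.9 CPM at hypoxia exposure 4, against 60.2, 92.02 and 95.6 CPM at exposure 1 (log2 -2.01, edgeR adjusted p = 0.00704). *cyp-35A2* had 20.8, 21.4 and 19.3 CPM at hypoxia exposure 4, against 48.8, 67.9 and 53.3 CPM at exposure 1. Its log2 fold change was -1.47 under hypoxia and 0.69 in normoxia, and the difference of -2.15 was called (edgeR adjusted p = 0.0182). *cyp-13A5* (log2 -2.41), *cyp-35A1* (log2 -2.74), *cyp-35A3* (log2 -3.10) and *cyp-32B1* (log2 -1.16) fell too. The highest group mean among exposures 4 and 1 was 3.48 CPM for *cyp-35A1* and 3.70 CPM for *cyp-35A3*, both at hypoxia exposure 1.

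Conjugating enzymes were called in both directions, as were all genes tested. Of 52 UDP-glucuronosyltransferases 2 rose (3.8%) and 5 fell (9.6%), against 1.46% and 5.28% of all genes tested. *ugt-19* was at log2 -1.32, *ugt-62* at -0.82, *ugt-54* at -1.06 and *ugt-12* at 0.69. Without hypoxia exposure 1 replicate 2, 13 were higher and 21 lower, shares that were also above those of all genes. Whether the list departs from all genes was not tested. Among 23 glutathione S-transferases *gsto-1* rose 2.50-fold and no other was called, against 10 higher and 2 lower without that library. Of 11 lipases tested, the lysosomal lipase genes *lipl-1* (log2 1.43) and *lipl-5* (log2 0.40) rose, against 3 higher and 4 lower without that library. Among 9 lysozymes *lys-10* rose (log2 2.63) and *lys-4* fell (log2 -2.07), against 3 higher and 5 lower without that library. In normoxia 1 glutathione S-transferase rose, and 1 lipase and 1 lysozyme fell. *lys-4* had 20.9, 22.7 and 22.2 CPM at hypoxia exposure 4, against 54.8, 155 and 66.9 CPM at exposure 1. *lys-10* averaged 3.08 CPM at hypoxia exposure 4 and 0.497 CPM at exposure 1, but 27.1 CPM at hypoxia exposure 3. Of 88 C-type lectins 2 rose and 6 fell, with *clec-49* at log2 1.01 and *clec-169* at log2 -1.78, and without that library 22 were higher and 29 lower. In normoxia 6 lectins rose and 15 fell (17.05%), with a median log2 of -0.33 against -0.01 under hypoxia. There *clec-169* fell as well (log2 -2.02, edgeR adjusted p = 0.02), and *clec-49* was not called (log2 -0.07). Among 17 infection-responsive genes 6 were higher and 3 lower without that library, and in normoxia 1 rose and 3 fell. With all libraries *irg-3* rose (log2 0.99) and *dod-22* fell (log2 -0.81) under hypoxia. The list also took in *clc-1*, a claudin-like gene and not an immune one, which fell (log2 -0.99), as did the overlapping claudin-like pair *clc-19* and *clc-20* (log2 -2.13 and -1.91).

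Other large falls came from genes of different kinds. F33H12.7 had 9.15, 9.88 and 6.94 CPM at hypoxia exposure 4, against 35.7, 44.9 and 61.1 CPM at exposure 1 (log2 -2.45, edgeR adjusted p = 0.00707), and it fell to a like extent in normoxia (log2 -2.14, adjusted p = 0.0149). K11H12.4 did the same (log2 -1.98 under hypoxia and -2.10 in normoxia). The acyltransferase gene *oac-6* (log2 -1.90) and *tbb-6*, a beta-tubulin (log2 -1.94), fell under hypoxia and were not called in normoxia. *tbb-6* averaged 16.7, 35.2, 86.7 and 4.36 CPM over hypoxia exposures 1 to 4. The tetraspanin genes *tsp-1* and *tsp-2* fell by 2.50 and 2.95 on the log2 scale.

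Among the lists described, sperm genes held the most falls. Major sperm proteins drive the crawling of nematode sperm and signal to oocytes, and their genes are near-identical copies between which reads may have been shared. Of 31 annotated genes 29 were tested, 27 fell and none rose under hypoxia, with a median log2 fold change of -0.99. In normoxia 13 fell, with a median of -0.52. Summed over the 29 genes, the level was 885.9, 951.8 and 846.1 CPM at hypoxia exposure 4, against 1584, 1945 and 1787 CPM at hypoxia exposure 1. In normoxia the sums were 550.9, 638.1 and 676.1 CPM at exposure 4 and 823.9, 841.8 and 920.0 CPM at exposure 1. Each pair of groups was separate. *msp-59* had 50.2, 51.4 and 47.2 CPM at hypoxia exposure 4, against 101, 104 and 111 CPM at exposure 1 (log2 -1.09 ± 0.08, SE; edgeR adjusted p = 0.00427), with a normoxia change of -0.55. *msp-113* was the only member with a called difference between the hypoxia and normoxia changes (log2 -0.65, edgeR adjusted p = 0.0486).

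Other sperm genes followed. Of 50 spermatogenesis genes tested 27 fell and none rose (median log2 -0.69), against 4 lower in normoxia (median -0.22). They included *ssq-4* (log2 -0.76), *ssq-3* (log2 -0.86), *ssp-9* (WBGene00006040, log2 -0.88) and the sperm protein phosphatase gene *gsp-4* (log2 -0.70). Among 170 name stems with at least 8 tested genes, 4 had at least 50% of their genes called in 1 direction, and all 4 fell: 27 of 29 *msp*, 7 of 8 *ssp*, 6 of 9 *nspd* and 7 of 11 *abu* genes. The Argonautes *alg-3* and *alg-4*, which act with small RNAs in spermatogenesis, were lower (log2 -0.85 and -0.80), as was *ppw-2* (log2 -0.38), and 16 other Argonautes were not called. With the exposure 1 library that stood apart left out, 4 Argonautes were higher and 6 lower. In normoxia 0 Argonautes rose and 4 fell. *alg-3* had 29.9, 33.6 and 28.2 CPM at hypoxia exposure 4, against 51.0, 58.5 and 56.4 CPM at exposure 1, and its normoxia means were 9.88 CPM at exposure 4 and 11.04 CPM at exposure 1. The 9 sperm markers summed to 148.6 to 155.3 CPM at hypoxia exposure 4 and to 228.9 to 275.8 CPM at exposure 1. In whole worms, fewer cells of a type and less RNA per cell cannot be told apart. Without the library that stood apart all 29 major sperm protein genes and 38 of the 50 spermatogenesis genes were lower, and 1 of the 50 was higher.

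The calls of egg-forming genes depended on 1 library. With all libraries, 1 of 18 eggshell genes rose (*perm-2*, a permeability barrier gene, log2 0.53) and 1 of 31 genes listed as oocyte genes fell (*puf-9*, log2 -0.52). Of 6 vitellogenins 0 were called in edgeR (0 at an unadjusted p and 0 in DESeq2). Without hypoxia exposure 1 replicate 2, 16 eggshell genes, 19 oocyte genes and 5 vitellogenins were higher, and 2 oocyte genes were lower. In normoxia 0 eggshell genes and 0 vitellogenins were called, and 1 gene of the oocyte list, again *puf-9*, was lower. With all libraries the vitellogenin median log2 was 0.24 under hypoxia and -0.48 in normoxia, where all 6 were below 0. Their normoxia sums were 48060 to 67120 CPM at exposure 4 and 75300 to 103800 CPM at exposure 1, which do not overlap. *vit-3* had 2871, 2209 and 2349 CPM at hypoxia exposure 4, against 184.3, 5637 and 185.7 CPM at exposure 1. The replicate that stood apart was thus above, and its mates below, every exposure 4 library, and the log2 fold change was 0.31 with it and 3.74 without it. *vit-3* and *vit-4* are near-identical, so their reads may have been shared. Meiosis, DNA replication and mitosis genes had no member called in edgeR out of 32, 32 and 53 with all libraries (1, 0 and 4 higher at an unadjusted p, and 1, 0 and 2 in DESeq2). Without that library 9, 16 and 29 were called higher, and 2 mitosis genes lower. In normoxia 1, 1 and 0 were called higher, and 2 mitosis genes lower.

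**Figure D5:**
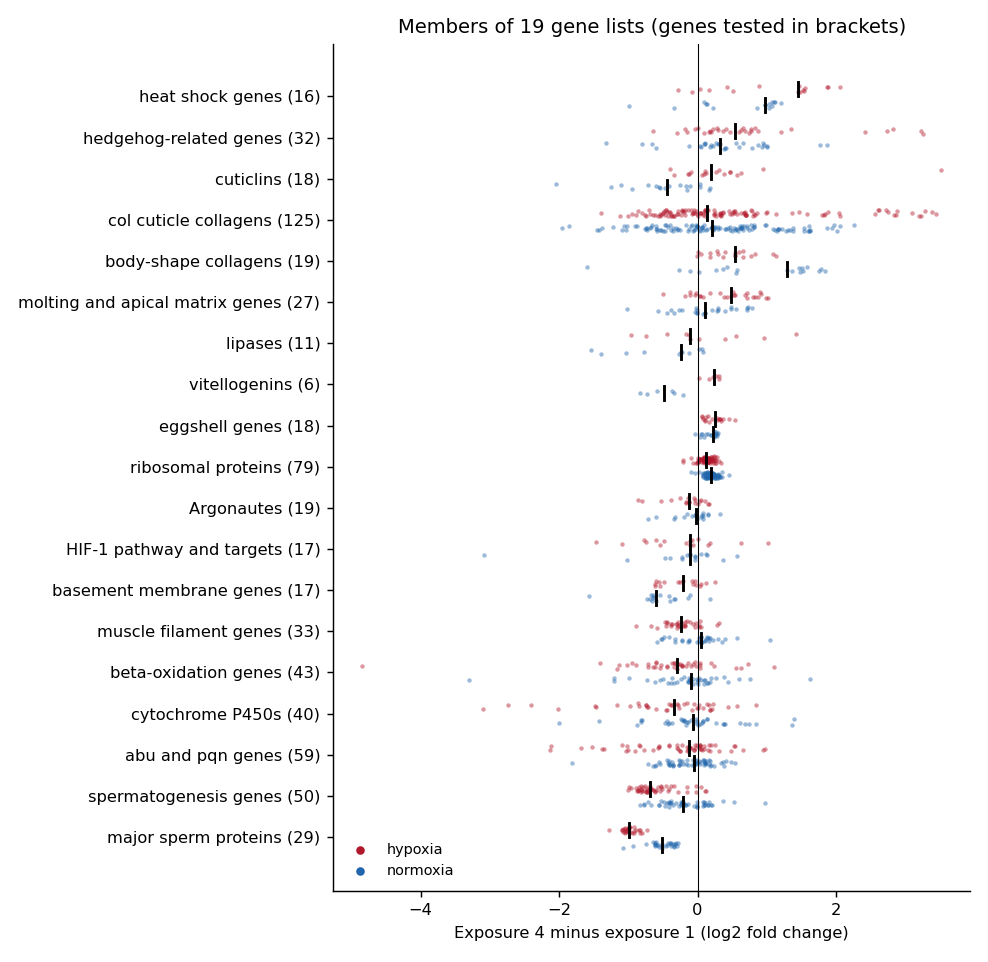
Log2 fold change between exposures 4 and 1 (horizontal axis) of every tested member of 19 gene lists, hypoxia in red and normoxia in blue, with the median of each as a black bar. Most heat shock genes lie right of 0 under both (medians 1.46 and 0.98), most major sperm proteins left of 0 under both (medians -0.99 and -0.52), and ribosomal proteins near 0.

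The *abu* and *pqn* genes, which encode glutamine- and asparagine-rich repeat proteins of which several line the pharyngeal cuticle, included 10 that fell. Of 59 tested, these fell (16.9%) and none rose under hypoxia, against 20 lower and 7 higher without the library that stood apart, and 8 members had a called difference between the hypoxia and normoxia changes, all below 0. *abu-6* had 9.03, 7.80 and 7.72 CPM at hypoxia exposure 4, against 21.4, 23.5 and 25.9 CPM at exposure 1 (log2 -1.53, edgeR adjusted p = 0.00629). In normoxia it averaged 8.24 CPM at exposure 4 and 7.21 CPM at exposure 1. Hypoxia exposure 1 was the highest of these 4 groups, and the difference was -1.72 (edgeR adjusted p = 0.0182). It was not the highest of the series. At exposures 2 and 3 *abu-6* averaged 43.75 and 18.1 CPM under hypoxia and 7.98 and 25.1 CPM in normoxia. *abu-15* (log2 -1.69), *abu-7* (log2 -1.35), *abu-9* (log2 -2.12) and *pqn-57* (log2 -2.13) were likewise highest at hypoxia exposure 1 among the 4 groups. Hypoxia exposure 1 averaged 44.4, 27.25 and 3.84 CPM for *abu-15*, *abu-7* and *abu-9*. Hypoxia exposure 2 was higher for all of them, at 57.55, 41.5 and 4.77 CPM. Normoxia exposure 3 averaged 33.5, 29.8 and 4.52 CPM, which was higher for *abu-7* and *abu-9*. *abu-6* and *abu-7* are close copies and reads may have been shared. The list as a whole had a median of -0.13 under hypoxia and -0.05 in normoxia, where 1 member rose and 9 fell. The 10 pharynx markers summed to 749.5 to 892.7 CPM at hypoxia exposure 4 and 808.9 to 1120 CPM at exposure 1, overlapping ranges, and 1 of them was called lower. Their part in the change was not tested.

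Muscle and basement membrane genes fell in a few members. *unc-54*, the main body wall myosin heavy chain, had 1544, 1298 and 1572 CPM at hypoxia exposure 4, against 2613, 2911 and 2653 CPM at exposure 1 (log2 -0.89, edgeR adjusted p = 0.0171). Its normoxia levels were 1483, 1397 and 1403 CPM at exposure 4 and 2173, 2083 and 2159 CPM at exposure 1 (log2 -0.58, also called). *unc-89*, *tni-3* and *myo-3*, which encode an obscurin-like protein, a troponin I and a minor myosin, fell by 0.47, 0.67 and 0.44, and the other 29 of 33 muscle filament genes were not called. Without the library that stood apart 16 were lower and 5 higher. In normoxia 4 muscle filament genes fell and 1 rose. The 10 body wall muscle markers, which share these genes in part, summed to 3172 to 3749 CPM at hypoxia exposure 4 and 4953 to 5868 CPM at exposure 1, and 3 of them were called lower. Of 17 basement membrane genes 4 fell, namely both type IV collagen genes *emb-9* and *let-2* (log2 -0.61 each), the laminin gene *lam-2* (log2 -0.62) and *mig-6*, which encodes papilin (log2 -0.55). In normoxia 10 fell, with a median of -0.60 against -0.21 under hypoxia. With the exposure 1 library that stood apart left out, 7 were lower and 1 higher under hypoxia.

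Some genes of the oxygen response itself were called between the exposures. Of 17 HIF-1 pathway and target genes *egl-9* and *nhr-57* fell (11.8%) and *ftn-2* rose (5.88%). Without hypoxia exposure 1 replicate 2, 7 were lower and 4 higher. In normoxia 1 of the 17 fell and 0 rose. *egl-9* had 36.1, 36.9 and 36.9 CPM at hypoxia exposure 4, against 49.1, 73.8 and 61.0 CPM at exposure 1 (log2 -0.74, edgeR adjusted p = 0.0339). *nhr-57*, a nuclear receptor gene induced by HIF-1, had 4.84, 6.26 and 7.64 CPM at exposure 4, against 10.6, 24.5 and 16.9 CPM at exposure 1 (log2 -1.47, edgeR adjusted p = 0.0452). *ftn-2*, a ferritin gene, had 266, 241 and 200 CPM at exposure 4, against 162, 150 and 145 CPM at exposure 1 (log2 0.63, edgeR adjusted p = 0.0282). None of the 3 was called in normoxia or for the difference. *nhr-57* was 1 of 7 nuclear hormone receptor genes that fell of 154 tested (4.55%, below the 5.28% of all genes), with *nhr-115* at log2 -1.19, *nhr-99* at -1.04, *nhr-226* at -0.92 and *nhr-232* at -0.84. None rose, and 3 rose and 8 fell in normoxia. Without the library that stood apart 69 were lower (44.8%) and 6 higher under hypoxia.

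A list of 14 genes held chromatin and small RNA genes that the study perturbed, among them *mes-2* and *mes-3* of the PRC2 histone methyltransferase, and also *mes-6*, another PRC2 subunit. It had 0 calls under hypoxia in edgeR, 0 at an unadjusted p and 0 in DESeq2. *mes-2* had 62.4, 65.0 and 61.2 CPM at hypoxia exposure 4, against 66.2, 70.9 and 62.3 CPM at exposure 1 (log2 -0.08 ± 0.08, SE). Without the library that stood apart 4 of the 14 were higher, including *hrde-1* (log2 0.42) and *meg-3* (log2 0.63). Of 79 ribosomal protein genes none was called in edgeR (4 higher at an unadjusted p, 7 in DESeq2), with a median log2 of 0.13, and 4 were higher and 1 lower without that library.

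Besides the genes above, the named genes with a called difference between hypoxia and normoxia changes included F19C7.2, R11A5.3, T16G12.4 and Y38E10A.14. F19C7.2 had 15.1, 16.9 and 14.3 CPM at hypoxia exposure 4, against 7.08, 6.58 and 7.12 CPM at exposure 1, and 11.7 CPM on average at normoxia exposure 4 against 14.6 CPM at normoxia exposure 1. Y38E10A.14 moved in opposite directions, with 11.9, 8.86 and 10.9 CPM at hypoxia exposure 4 against 24.5, 25.7 and 27.4 CPM at exposure 1. In normoxia it averaged 14.1 CPM at exposure 4 and 5.85 CPM at exposure 1, and both changes were called.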

How the data were processed

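Poly(A) RNA of whole worms was sequenced by the authors from directional libraries. Reads were trimmed with cutadapt 4.0, aligned with bowtie2 to WS235 and counted per gene with FeatureCounts, and the authors deposited the whole-number counts without normalization. Use of the strand in counting is not given in the sources used here. The tables of fold changes and p-values that the authors deposited from their own comparisons were not used. Of 24 libraries, 12 entered the tests. All 46926 genes were found in Ensembl release 115 (WBcel235), which gave names and coordinates.

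Counts were tested in R 4.3.3 with edgeR 4.0.16 (glmQLFit, glmQLFTest) on 13250 genes with at least 350 counts over the 6 hypoxia libraries, with TMM factors from all 24 libraries. Hypoxia (exposure 4 against 1) and normoxia were fitted separately and their difference over 12 libraries. Genes were called at an adjusted p under 0.05 (Benjamini-Hochberg). As 3 libraries against 3 give an exact p no lower than 0.1, single genes rest on the spread shared across genes. Replicates are biological per the study. Alternatives were DESeq2 1.42.0, upper-quartile and 6-library TMM scaling, other count minimums (none beyond 1 count, or 10 in every library), a 2-fold minimum, an unadjusted p, joint fits of 12 or 24 libraries, the replicate number as a block, fits without ribosomal RNA genes, and each library left out.

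The genes, lists and rules were chosen with earlier results of these data known. Named are the 10 largest rises and falls among called protein-coding genes with separate libraries and at least 10 CPM in the higher group, up to 4 called members of each described list and all members of lists of at most 16 genes, the 5 called genes on each side with the smallest p for the difference, and the 5 largest rises and falls among genes with an unadjusted p of at least 0.05 in normoxia. The genes of propionate breakdown other than *acdh-1* were chosen after their values were seen.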

Additional observations from a re-analysis of the deposited data

Results flagged for a closer look

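The change between exposures 4 and 1 differed between hypoxia and normoxia, by the edgeR test of the difference over 12 libraries, for 25 of the named genes. The values that follow are the hypoxia change minus the normoxia change on the log2 scale. Above 0 were the cuticle collagens *col-37* (3.87), *col-2* (3.83), *col-185* (3.61), *col-40* (3.58), *col-51* (3.41), *col-85* (2.92), *col-44* (2.75) and *col-95* (1.15), with *grl-25* (4.06), C47G2.15 (4.96), *irg-3* (1.55), F19C7.2 (1.47), R11A5.3 (1.46) and T16G12.4 (1.02). Below 0 were *acdh-1* (-4.94), *cyp-35A2* (-2.15), Y38E10A.14 (-2.56) and *col-146* (-1.17). The *abu* and *pqn* genes below 0 were *abu-15* (-2.04), *pqn-57* (-1.88), *abu-9* (-1.75), *abu-6* (-1.72) and *abu-7* (-1.47). The sperm genes below 0 were *msp-113* (-0.65) and *ssp-9* (WBGene00006040, -0.69).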

How the results depend on the processing

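The 105 named genes called under hypoxia kept their direction under the alternatives tried. As the 2 groups do not overlap for any called gene, leaving out a library could not reverse them, and this adds no support. Of the 49 not called, 17 changed sign under at least 1 alternative. Of the 193 higher and 700 lower genes under hypoxia, DESeq2 gave 592 and 1223, a joint fit of 12 libraries 338 higher, a fit of 24 libraries 613 and 1384, a 2-fold minimum 89 and 145, and an unadjusted p 1003 and 2051. With each library left out the counts were 0 to 2188 higher and 0 to 3020 lower. For the normoxia comparison (309 and 850) DESeq2 gave 696 and 1519, the fit of 24 libraries 706 and 1533, a 2-fold minimum 94 and 248, an unadjusted p 1547 and 2250, and libraries left out 49 to 1370 and 90 to 2056, the highest without normoxia exposure 1 replicate 1. For the difference (76 and 59) DESeq2 gave 369 and 265, the fit of 24 libraries 302 and 186, an unadjusted p 1005 and 950, libraries left out 1 to 350 and 1 to 257, and upper-quartile scaling 37 below 0.

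With the replicate number as a block the counts were 33 and 88 under hypoxia, 0 and 0 in normoxia (1547 and 2250 at an unadjusted p without the block) and 19 and 19 for the difference. Deviations of same-numbered hypoxia libraries correlated at -0.03, 0.03 and 0.10, and those of normoxia libraries at -0.64, -0.53 and -0.20. Deviations from a mean of 3 libraries are not independent and can follow 1 library. These values therefore cannot settle whether the numbers pair the samples. The cause of these moves was not tested.

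The log2 fold changes that changed sign had these lowest and highest values with each hypoxia library left out: *acdh-2* -0.867 to 0.084, *hach-1* -0.629 to 0.007, *hsf-1* -0.026 to 0.165, *hsp-12.2* -0.147 to 0.016, *hsp-12.3* -0.045 to 0.301, *ilys-5* -0.134 to 1.842, *lid-1* -0.029 to 0.093, *lipl-4* -0.569 to 0.228, *lys-8* -0.154 to 0.069, *met-2* -0.193 to 0.08, *set-25* -0.18 to 0.123, *vit-1* -0.38 to 3.405, *vit-2* -0.126 to 0.195, *vit-3* -0.233 to 3.743, *vit-4* -0.305 to 3.287, *vit-5* -0.037 to 1.245 and *vit-6* -0.01 to 0.899. With the replicate number as a block *acdh-2* was at 0.032 and *lipl-4* at 0.123.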
